A study of Mus musculus with 6 samples.

Results

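The Toll-like receptor genes of the panel and Myd88, the adaptor through which nearly all of these receptors signal, were followed in peritoneal macrophages of mice with ovarian tumors. The members were taken by name, as every measured gene whose symbol is Tlr followed by digits, plus Myd88. They were 13 of the 754 genes measured, namely Tlr1 to Tlr9, Tlr11, Tlr12, Tlr13 and Myd88. Macrophages were sorted as F4/80+ CD11b+ cells from the peritoneal lavage of adult C57BL/6J mice that had been injected with ID8 cells, a mouse ovarian cancer line, 7 weeks before treatment. The 3 PBS samples came from mice given 2 intraperitoneal doses of PBS, on day 1 and day 5, and the 3 IRF5-NP samples from mice given nanoparticles with 30 µg of mRNA for mouse IRF5 on the same days. The dose and the 7 weeks are those of the sample labels, and the methods of the study give another dose and a shorter interval for its ovarian tumor model and describe particles in which IRF5 mRNA is mixed with mRNA for the kinase IKKβ. No sample with particles carrying another mRNA was analysed here, so effects of IRF5 and of the particle cannot be told apart. Transcripts were counted with NanoString nCounter probes, 1 per gene, and values are given as normalized counts, which are barcode counts scaled to housekeeping genes.

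Toll-like receptors recognize microbial and damage-associated molecules and drive inflammatory gene expression in macrophages. Tlr1, Tlr2, Tlr4, Tlr5 and Tlr6 sit on the cell surface and bind mainly lipids and proteins, whereas Tlr3, Tlr7, Tlr8, Tlr9 and Tlr13 sit in endosomes and sense nucleic acids, and Tlr11 and Tlr12 are endosomal receptors for a protozoan protein. Myd88 recruits kinases and Traf6 to the activated receptors, and IRF5 and NF-kB are transcription factors that act further down the same route.

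The counts behind the values summed to between 683472 and 1830318 per sample, with the lowest sum in IRF5-NP 3. A chi-square test of PBS 2 against PBS 3 over 754 genes showed no excess over sampling noise (1.07 per degree of freedom, p = 0.0782), and both were counted as 1 sample. The comparison therefore rests on 2 PBS and 3 IRF5-NP samples, and PBS means ± SD below are of n = 2. With PBS 2 or PBS 3 left out, the other stands for both, so passing in those fits adds little. With PBS 1 left out, the PBS group is 1 sample with no spread of its own. A call lost in that fit can therefore also reflect the smaller group. PBS 1 and IRF5-NP 1 stood apart from the other samples of their groups, with chi-square values of 54.0 to 179.3 per degree of freedom against 7.07 for IRF5-NP 2 and 3. Nothing in the labels says whether samples came from single animals, so p-values measure only the spread between these samples. The background of a sample was taken as its negative control mean with 2 SD added, and it lay between 25.6 and 37.8 normalized counts in 5 samples and at 79.4 in IRF5-NP 3. The macrophage markers Adgre1 (F4/80) and Itgam (CD11b), on which the cells were sorted, were above background in every sample, at 6523 to 25506 and 15177 to 36473 normalized counts.

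Tlr9, the receptor for unmethylated CpG DNA, was the only member that changed between the groups by limma's moderated test on log2 values. Its levels were 231, 209 and 197 normalized counts in PBS 1, 2 and 3 and 66.6, 89.3 and 80.6 in IRF5-NP 1, 2 and 3. All 3 IRF5-NP samples lay below all 3 PBS samples. PBS samples averaged 217 ± 20.2 (SD, n = 2) and IRF5-NP samples 78.8 ± 11.4 (SD, n = 3), and the log2 change was -1.46 (SE 0.25, 95% interval -2.04 to -0.87), a 2.74-fold lower level, with an adjusted p of 0.0132 by limma. The signal in IRF5-NP 3 was 31 counts against a background of 30.5 counts, so that level lies at the limit of the assay. The call was lost without PBS 1 (log2 change -1.36, adjusted p = 0.0738 by limma) and without IRF5-NP 3 (-1.48, adjusted p = 0.0650), and adjusted p-values over the 22 alternatives ranged from 0.00217 to 0.400. With every value raised to at least the highest background, 79.4 normalized counts, the log2 change was -1.37 with an adjusted p of 0.0210 by limma. That floor lifted IRF5-NP 1 from 66.6 to 79.4, close to the other IRF5-NP samples. The SE was then 0.087 against 0.25, so this p-value rests partly on a spread narrowed by the floor.

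The 1 of 13 members past the threshold is a share of 7.69%, near the 9.55% of the panel (72 of 754 genes) that passed, so the count is no result about the receptors as a group. In the lower direction alone, 7.03% of the panel passed. The fitted change was below 0 for 12 of the 13 members, with a median log2 change of -0.47, against 390 of 754 genes and a median of -0.03 over the panel. Tlr11 and Tlr12, which were near background, are in that count, and without them it was 10 of 11, with the same median to 2 decimals. With values raised to each sample's background, 10 of 13 members were fitted below 0, with a median of -0.47 against 0.14 over all genes. Under a common median of genes above background and under quantile normalization, 11 members were fitted below 0, with medians of -0.31 and -0.27 against 0.13 and 0.11 over all genes. Two-sided unadjusted p-values under 0.05 were found for Tlr1 and Tlr9, which are 2 of the 13 members, and for 191 of the 754 genes. For 5 members, Tlr1, Tlr2, Tlr9, Tlr11 and Myd88, the IRF5-NP values all lay below the PBS values, a pattern seen in 20.4% of the panel. No member had IRF5-NP values all above the PBS values.

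**Figure D1:**
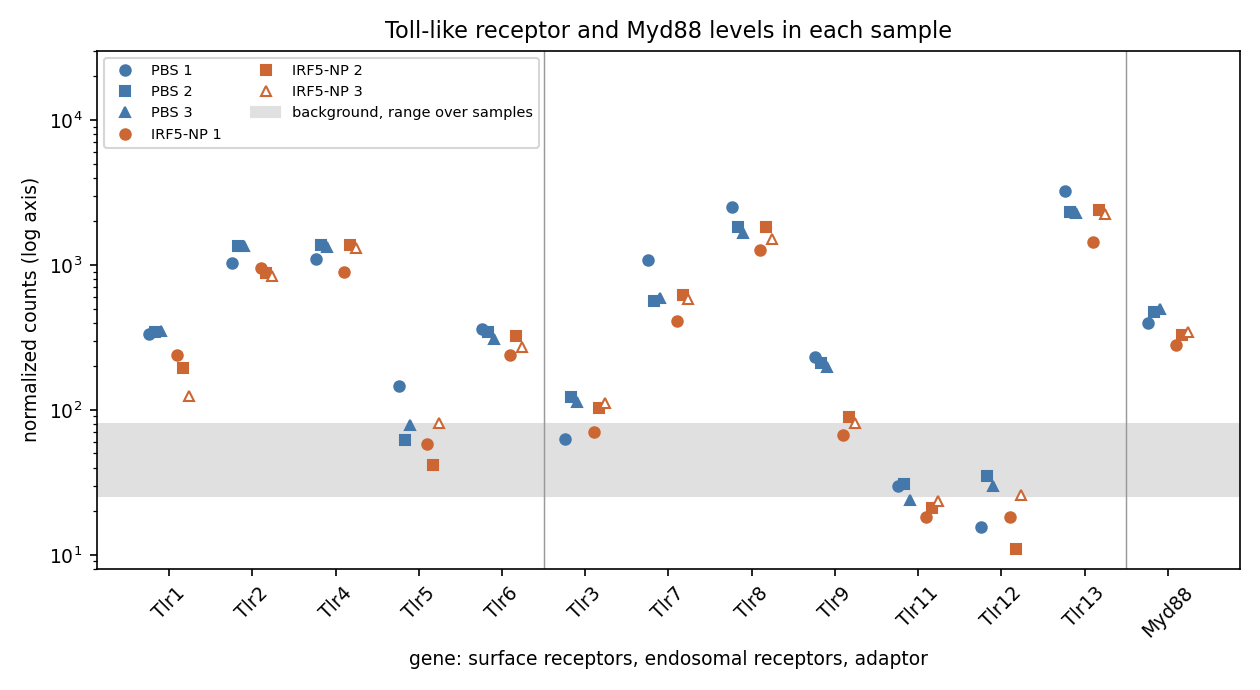
Normalized counts (log axis) of the 5 surface receptors, 7 endosomal receptors and Myd88 in each of the 6 samples, with PBS in blue and IRF5-NP in orange, and marker shape giving the replicate number. The grey band spans the background of the 6 samples, 25.6 to 79.4 normalized counts. The orange points of Tlr9 lie at 66.6 to 89.3, below its blue points at 197 to 231, whereas the points of Tlr4 overlap.

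Among the surface receptors, Tlr1 had the largest fitted difference. Tlr1, which pairs with Tlr2 to bind triacylated lipopeptides, was at 335, 347 and 352 normalized counts in the PBS samples and 239, 193 and 125 in IRF5-NP 1, 2 and 3. The groups did not overlap, and the IRF5-NP samples were more widely spread than the PBS samples. The log2 change was -0.93 (SE 0.30, 95% interval -1.63 to -0.23), with an adjusted p of 0.0899 by limma, which misses the threshold. With PBS 2 and 3 taken as separate samples it was -0.94 with an adjusted p of 0.0389 by limma. Tlr1 passed in 2 of 22 alternatives, both with PBS 2 and 3 separate. In IRF5-NP 3 its signal was 48 counts, 1.57 times the background of that sample. Without IRF5-NP 3 the log2 change was -0.67 (adjusted p = 0.235 by limma).

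Tlr2, the shared partner of Tlr1 and Tlr6, was at 1027, 1346 and 1354 normalized counts with PBS and 957, 885 and 839 with IRF5-NPs. The groups did not overlap, but PBS 1 and IRF5-NP 1 were close to each other. The log2 change was -0.40 (SE 0.21), with an adjusted p of 0.296 by limma, and the groups overlapped under a common median and under quantile normalization.

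Tlr6, which pairs with Tlr2 to bind diacylated lipopeptides, was at 360, 347 and 307 normalized counts with PBS and 238, 322 and 270 with IRF5-NPs. The ranges overlapped and the log2 change was -0.32 (SE 0.22, adjusted p = 0.461 by limma). Tlr4, the receptor for bacterial lipopolysaccharide, was at 1094, 1382 and 1318 with PBS and 895, 1370 and 1304 with IRF5-NPs. Its values nearly coincided in the replicates numbered 2 and 3, and the log2 change of -0.06 (SE 0.25, 95% interval -0.64 to 0.53) turned to 0.11 under a common median. Tlr5, the receptor for flagellin, was at 146, 62.1 and 78.9 with PBS and 58.1, 41.9 and 80.6 with IRF5-NPs. Its levels were 1.01 to 3.86 times the background of their sample, PBS 1 was the highest, and the log2 change of -0.79 (SE 0.41) had an adjusted p of 0.293 by limma and was -0.26 without PBS 1.

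Of the endosomal receptors other than Tlr9, none passed the threshold. Tlr7, a sensor of single-stranded RNA, was at 1075, 566 and 587 normalized counts with PBS and 412, 621 and 582 with IRF5-NPs. Tlr8, its close relative, was at 2508, 1827 and 1660 with PBS and 1265, 1818 and 1499 with IRF5-NPs. Tlr13, which senses bacterial ribosomal RNA in mice, was at 3254, 2309 and 2284 with PBS and 1441, 2379 and 2227 with IRF5-NPs. In each of these 3 genes PBS 1 was the highest sample and IRF5-NP 1 the lowest, and the other 4 samples spanned 566 to 621 in Tlr7, 1499 to 1827 in Tlr8 and 2227 to 2379 in Tlr13. The log2 changes were -0.57 (SE 0.32, adjusted p = 0.325 by limma) for Tlr7, -0.47 (SE 0.26, adjusted p = 0.315) for Tlr8 and -0.47 (SE 0.29, adjusted p = 0.385) for Tlr13. Without PBS 1 they were -0.12, -0.20 and -0.22 in that order, and without IRF5-NP 1 Tlr13 was at -0.25.

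Tlr3, the sensor of double-stranded RNA, which signals through the adaptor Trif and not through Myd88, was at 63.3, 122 and 113 normalized counts with PBS and 70.4, 103 and 112 with IRF5-NPs. The groups overlapped almost entirely, and its log2 change of 0.11 (SE 0.35, 95% interval -0.71 to 0.93) was -0.33 without PBS 1. Tlr11 was at 30.1, 31.0 and 23.8 with PBS and 18.1, 21.0 and 23.4 with IRF5-NPs, above background in 1 of 6 samples. Tlr12 was at 15.6, 35.2 and 30.0 with PBS and 18.1, 11.0 and 26.0 with IRF5-NPs, above background in 2 of 6 samples. The signals of Tlr11 and Tlr12 were too close to background to read a difference from them, and the other 11 members were above background in every sample.

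Myd88 was at 397, 474 and 496 normalized counts with PBS and 280, 331 and 343 with IRF5-NPs. The groups did not overlap. PBS samples averaged 441 ± 61.8 (SD, n = 2) and IRF5-NP samples 318 ± 33.5 (SD, n = 3), and the log2 change of -0.47 (SE 0.22, 95% interval -0.97 to 0.03) did not pass the threshold, with an adjusted p of 0.225 by limma. No other adaptor of the receptors was analysed here.

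**Figure D2:**
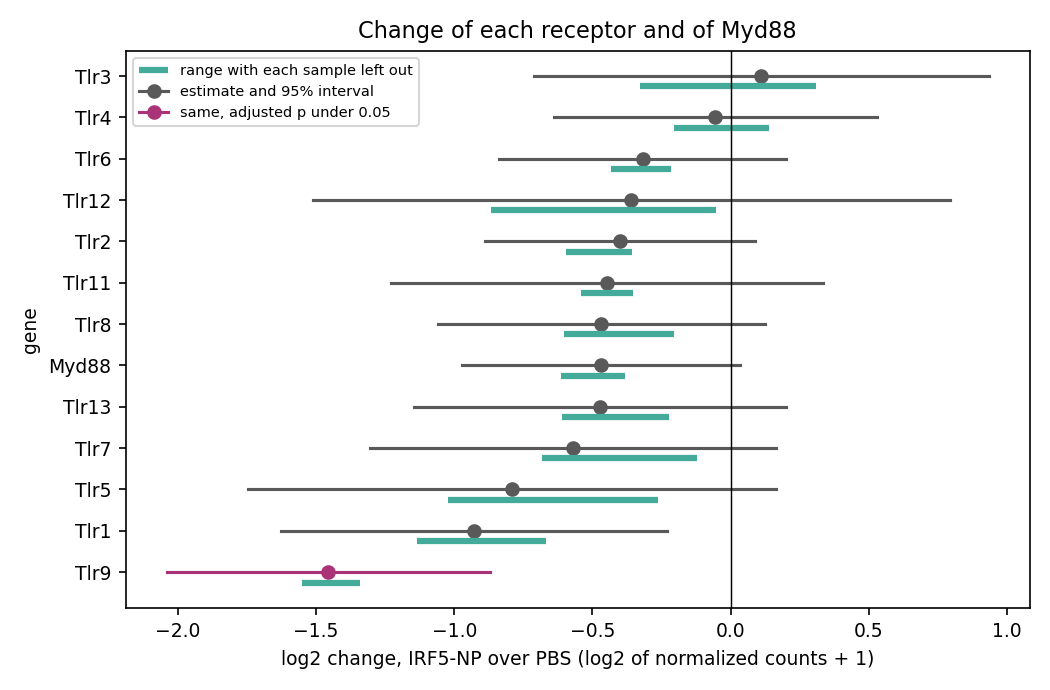
Log2 change of each member, IRF5-NP over PBS, with its 95% interval (thin line) from limma and the range of estimates with each sample left out in turn (thick green bar). Tlr9, at -1.46, is the only member past the threshold. The leave-out bars of Tlr3 and Tlr4 cross 0.

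Surface and endosomal receptors were compared as a description, with no test. The mean log2 level of the 7 endosomal members minus that of the 5 surface members was -0.85, -0.74 and -0.89 in PBS 1, 2 and 3 and -1.10, -0.81 and -0.67 in IRF5-NP 1, 2 and 3. The PBS values lay within the range of the IRF5-NP values. The change of -0.03 was small against the pooled SD of 0.18 within groups. With only Tlr3, Tlr7, Tlr8 and Tlr9 as the endosomal members it was -0.10, with members above background in every sample it was -0.07, and with all endosomal members except Tlr9 it was 0.13. Separately, the median log2 change was -0.47 over the endosomal members, 6 of 7 of which were fitted lower, and -0.40 over the surface members, all 5 of which were fitted lower. Without Tlr11 and Tlr12, 4 of 5 endosomal members were fitted lower, with a median of -0.47.

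The size of the differences depended on which samples were set side by side. Between the samples numbered 1, the median difference of the 7 endosomal members was -0.99 on the log2 scale, and between the means of the samples numbered 2 and 3 it was -0.13. For the 5 surface members these medians were -0.49 and -0.26, and for the whole panel -0.18 and 0.07. Tlr7 differed by -1.38 between the samples numbered 1 and by 0.06 between the others, and Tlr8 by -0.99 and -0.08. Tlr1 and Tlr2 had the larger difference in the samples numbered 2 and 3, with -1.17 against -0.49 for Tlr1 and -0.65 against -0.10 for Tlr2. Tlr9 was lower in both, by -1.78 and -1.25, and Myd88 by -0.50 and -0.52. The summed level of 8 neutrophil markers, of which Mpo and Camp were below background in every sample, was 6658 normalized counts in PBS 1 and 1581 to 2528 in the other 5 samples. That sum was mostly S100a8 and S100a9, at 3405 and 2598 in PBS 1. The only neutrophil marker past the threshold, Csf3r, rose (log2 change 0.88, adjusted p = 0.0459 by limma). With a sample left out, Csf3r passed only without PBS 2, PBS 3 or IRF5-NP 1. The summed level of 6 macrophage markers was 59818 to 63548 with PBS, 48305 in IRF5-NP 1, 100854 in IRF5-NP 2 and 95304 in IRF5-NP 3. Of the 6, only Mertk passed the threshold, and it fell (log2 change -1.23, adjusted p = 0.0218 by limma). With a sample left out, Mertk passed only without PBS 2 or PBS 3. The part of these levels in the differences between the samples numbered 1 was not tested. The numbers were not shown to pair the samples, and the difference between the 2 sets was not tested.

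**Figure D3:**
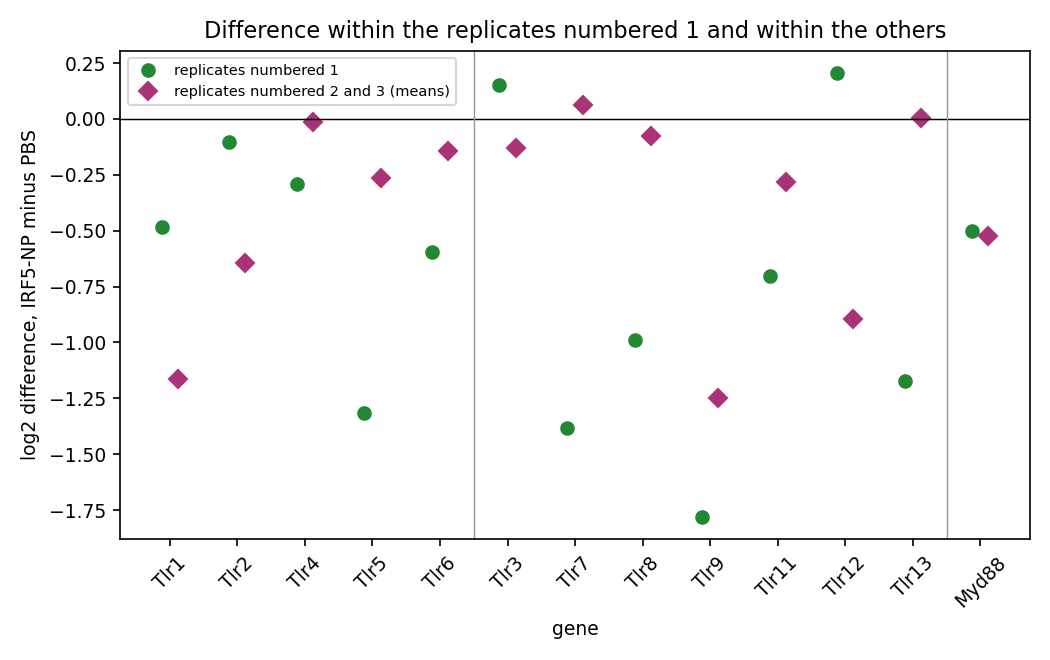
Log2 difference, IRF5-NP minus PBS, of each member between the replicates numbered 1 (green circles, 1 sample a group) and between the means of the replicates numbered 2 and 3 (purple diamonds, 2 samples a group). Tlr9 lies at -1.78 and -1.25 and Myd88 at -0.50 and -0.52. Tlr7 lies at -1.38 and 0.06.

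The 250 bases before and 50 after the annotated start were read from RefSeq (GRCm38.p6) for 11 of the 13 members, and those of Tlr9, Tlr1, Tlr2 and Myd88 are shown because these are the members above background in every sample whose groups did not overlap. Capitals mark matches, on either strand, to the PU.1 core GAGGAAGT in Tlr9 and Tlr1, to the NF-kB motif in Tlr2 and to the interferon-stimulated response element core GAAANNGAA in Myd88. PU.1 is a lineage factor of macrophages, and the response element is bound by IRF family members.
Tlr9, chr9:106222348-106222647, plus strand: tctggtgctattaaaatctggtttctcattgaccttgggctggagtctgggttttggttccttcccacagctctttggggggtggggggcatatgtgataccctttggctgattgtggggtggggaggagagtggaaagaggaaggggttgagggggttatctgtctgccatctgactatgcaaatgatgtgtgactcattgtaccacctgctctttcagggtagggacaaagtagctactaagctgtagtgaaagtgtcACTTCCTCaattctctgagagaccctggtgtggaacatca
Tlr1, first of 2 annotated starts, chr5:64933509-64933808, minus strand: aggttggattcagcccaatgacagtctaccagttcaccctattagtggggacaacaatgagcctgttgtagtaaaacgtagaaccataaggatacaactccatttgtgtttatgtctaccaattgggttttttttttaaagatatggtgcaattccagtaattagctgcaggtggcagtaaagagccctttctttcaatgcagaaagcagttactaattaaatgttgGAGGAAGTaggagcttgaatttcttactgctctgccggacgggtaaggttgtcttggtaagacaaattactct
Tlr2, chr3:83841559-83841858, minus strand: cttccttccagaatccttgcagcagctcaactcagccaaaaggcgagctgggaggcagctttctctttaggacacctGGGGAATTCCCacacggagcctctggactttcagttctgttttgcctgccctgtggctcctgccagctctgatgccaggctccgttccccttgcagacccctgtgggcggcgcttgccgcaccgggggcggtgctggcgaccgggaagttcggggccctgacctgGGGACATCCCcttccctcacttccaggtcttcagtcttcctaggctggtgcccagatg
Myd88, chr9:119339969-119340268, minus strand: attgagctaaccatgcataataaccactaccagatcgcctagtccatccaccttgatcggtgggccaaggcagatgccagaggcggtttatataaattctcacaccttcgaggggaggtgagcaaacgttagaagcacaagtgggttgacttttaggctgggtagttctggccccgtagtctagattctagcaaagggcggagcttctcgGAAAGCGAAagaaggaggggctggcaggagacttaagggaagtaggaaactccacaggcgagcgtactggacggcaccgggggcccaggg
The match began at base 11 after the start in Tlr9, on the opposite strand, at base -23 in Tlr1 and at base -40 in Myd88. The PU.1 core was found in the promoters of Tlr1, Tlr9 and Tlr11 and in 3.20% of 32851 mouse promoters. The response element core was found in those of Myd88, Tlr6, Tlr8 and Tlr11 and in 8.56% of all promoters, and the NF-kB motif in those of Tlr2 and Tlr3 and in 8.46%. These shares are per promoter, whereas a member was named if any of its annotated starts matched. Tlr1 and Tlr6 have 2 annotated starts each, and the second of each held no match to these motifs. A match describes the letters in the window and not a site in use.

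The 5 genes whose profile over the samples was closest to that of Tlr9 were Nampt, Il15ra, H2-DMa, Plau and Havcr2, out of 481 other genes above background in every sample. Closeness was the mean absolute difference of log2 values centred on each gene's mean over the 5 samples of the fit. It was 0.0768 for Nampt, the rate-limiting enzyme of NAD salvage, and 0.136, 0.147, 0.180 and 0.188 for the others in that order. Nampt was at 4056, 4190 and 3973 normalized counts with PBS and 1486, 1838 and 1614 with IRF5-NPs. Il15ra, the alpha chain of the interleukin-15 receptor, was at 299, 210 and 208 with PBS and 82.8, 106 and 122 with IRF5-NPs. H2-DMa, a chaperone of peptide loading on MHC class II, was at 2423, 2821 and 2970 with PBS and 826, 941 and 1006 with IRF5-NPs. All 5 genes had IRF5-NP samples below all PBS samples, as did 20.4% of the panel, and their adjusted p-values by limma ranged from 0.00420 to 0.0360. Because the 5 genes were picked for likeness to Tlr9 in these same samples, both features are largely given by the choice. H2-DMa passed with each sample left out in turn, Nampt and Plau did not pass without IRF5-NP 3, and Il15ra and Havcr2 did not pass without PBS 1 or without any 1 of the IRF5-NP samples. The nearest member, Tlr1, came 65th in that order, followed by Tlr7 at 72nd.

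**Figure D4:**
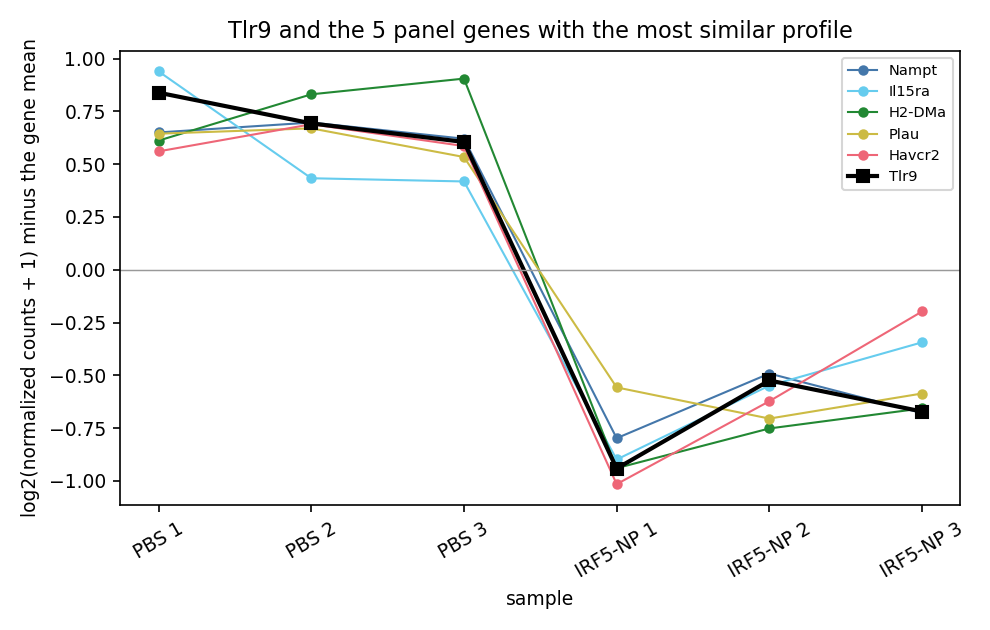
Log2 values (normalized counts + 1) of Tlr9 (black squares) and of the 5 genes with the closest profile, each minus its own mean over the 6 samples drawn. All 6 genes are above their mean in the 3 PBS samples and below it in the 3 IRF5-NP samples, which is largely given by the choice of genes like Tlr9.

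Levels of other cell types moved with the same grouping, and their part in the lower Tlr9 level was not tested. In bulk samples, fewer cells of a type and less RNA per cell cannot be told apart. The summed level of 7 markers of small peritoneal macrophages and monocytes was 86416 to 120218 normalized counts with PBS and 15697 to 18437 with IRF5-NPs, and 3 of the 7, H2-Aa, H2-Ab1 and H2-Eb1, fell by the test. The summed level of 5 markers of resident large peritoneal macrophages was 8104 to 18005 with PBS and 27364 to 49891 with IRF5-NPs, and 3 of the 5, Timd4, Selp and Cxcl13, rose. The MHC class II genes and Itgax passed with each sample left out in turn, whereas Timd4, Selp and Cxcl13 did not pass without PBS 1 (2.14, 1.38 and 1.99) or without IRF5-NP 3 (2.23, 2.03 and 1.81), and Selp also not without IRF5-NP 1 (2.58) or IRF5-NP 2 (1.96). The 6 dendritic cell markers summed to 389 to 433 with PBS and 178 to 231 with IRF5-NPs, of which Itgax alone fell (log2 change -1.88, adjusted p = 0.00589 by limma) and Xcr1 was below background in every sample. The 3 plasmacytoid dendritic cell markers, Ccr9, Irf8 and Lag3, summed to 979 to 1036 and 620 to 951, with 0 of 3 past the threshold by limma. Only Irf8, which is also in the pathway list of transcription factors, was above background in every sample. B cells also express Tlr9. Of 2 B cell markers, Fcer2a was below background in every sample. Ms4a1 was at 16.3 to 25.9 normalized counts with PBS and 50.5 to 75.4 with IRF5-NPs. It was below background in every PBS sample and in IRF5-NP 3. Its log2 change of 1.49 (adjusted p = 0.0351 by limma) still passed with PBS 2 or PBS 3 left out. Ms4a1 did not pass without PBS 1 (1.76) or without IRF5-NP 1, 2 or 3 (1.62, 1.49 and 1.34). The 11 eosinophil and mast cell markers, of which Epx, Prg2, Ccr3, Il5ra and Gata2 were below background in every sample, summed to 350 to 447 with PBS and 645 to 1052 with IRF5-NPs, and 2 of the 11, Hdc and Cpa3, rose, with neither passing without PBS 1 (1.52 and 1.46) or without IRF5-NP 3 (1.71 and 1.82), and Cpa3 also not without IRF5-NP 1 (1.60) or IRF5-NP 2 (1.98). The 3 NK cell markers summed to 96.4 to 129 and 84.9 to 122.

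Further along the pathway, 64 genes that are no members were measured from lists of accessory proteins, signaling proteins, transcription factors, inhibitors, induced cytokines, other sensors and ligands. Of these, 12 fell and 0 rose by limma, which is 18.8% of the 64 against 9.55% of the panel called in either direction and 7.03% called lower. The median log2 change over the 64 genes was -0.29, against -0.03 over the panel. Among the 64 genes, 4 were below background in every sample. Without IRF5-NP 3 the count of 12 was 4 and without PBS 1 it was 7.

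Among proteins that help the receptors bind ligand or mature, 5 were measured and 0 of 5 passed the threshold by limma. Cd14 and Cd180 had log2 changes of -0.36 and -0.25, the lipid receptor Cd36 0.14, and the endosomal proteases Ctss and Ctsl, which cleave the endosomal receptors, -0.46 and -0.34. Of 8 signaling proteins none passed. Traf6, the ubiquitin ligase that Myd88 engages through its kinases, was at 846, 404 and 428 normalized counts with PBS and 261, 300 and 320 with IRF5-NPs. Its groups did not overlap, and the log2 change was -1.02 with an adjusted p of 0.0811 by limma, and -0.51 without PBS 1.

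Of the 7 transcription factors, Jun, a subunit of AP-1, fell (log2 change -1.70, SE 0.42, adjusted p = 0.0429 by limma). Jun was at 5716, 1948 and 2043 normalized counts with PBS and 1258, 932 and 964 with IRF5-NPs, with PBS 1 far above the other samples. Without PBS 1 its log2 change was -0.94. Of the 6 fits with a sample left out it passed in 2, those without PBS 2 or PBS 3, and it did not pass under a common median (adjusted p = 0.0672 by limma) or quantile normalization (0.0882). Irf5 itself was at 2573, 1991 and 1929 with PBS and 1960, 2358 and 2294 with IRF5-NPs. The groups overlapped and the log2 change was -0.03 (SE 0.22, 95% interval -0.55 to 0.48), and whether the probe reads the codon-optimized delivered mRNA is not given in the sources used here. Irf7 and Irf3, which drive interferon genes below the endosomal receptors, had log2 changes of 1.20 (adjusted p = 0.102 by limma) and 0.62 (adjusted p = 0.122). Irf8, Nfkb1 and Cebpb had log2 changes of -0.41, -0.10 and 0.11.

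Of 8 inhibitors of the pathway, 5 fell, 0 rose and 7 were fitted lower. Over the panel, 7.03% of genes were called lower and 390 of 754 were fitted lower. Il1rl1, which was fitted higher, Socs1 and Dusp1 did not pass. Tnfaip3, which encodes the deubiquitinase A20, had a log2 change of -2.38 (SE 0.45, adjusted p = 0.0168 by limma), from 2242, 713 and 642 normalized counts with PBS to 221, 237 and 252 with IRF5-NPs. Atf3, a repressor of inflammatory genes, changed by -2.37, Nfkbia, the NF-kB inhibitor, by -1.48, the receptor kinase Mertk by -1.23 and Socs3, an inhibitor of cytokine signaling, by -1.03. PBS 1 was the highest sample in all 5 genes. Without PBS 1, Tnfaip3 was at -1.51 and passed, and Atf3 (-1.60), Nfkbia (-0.94), Mertk (-0.89) and Socs3 (-0.82) did not pass. Without IRF5-NP 3 all 5 missed the threshold, at -2.42 for Tnfaip3, -2.11 for Atf3, -1.49 for Nfkbia, -1.25 for Mertk and -0.99 for Socs3. Tnfaip3, Nfkbia and Mertk were also lost without IRF5-NP 1 (-2.33, -1.52 and -1.20), and Nfkbia, Socs3 and Mertk without IRF5-NP 2 (-1.42, -0.92 and -1.22). Under quantile normalization Nfkbia, Atf3 and Socs3 did not pass, and under a common median Socs3 did not. Tnfaip3 and Nfkbia are themselves known as genes that NF-kB induces.

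Of 22 cytokine and inflammatory genes that the receptors are known to induce, 6 fell, 0 rose and 17 were fitted lower. Over the panel, 390 of 754 genes were fitted lower and 7.03% were called lower. Among the 22 genes, 3 were below background in every sample, and they are in these counts. Ccl2, a monocyte attractant, was at 11562, 7616 and 7569 normalized counts with PBS and 1217, 646 and 696 with IRF5-NPs. Its log2 change was -3.52 (SE 0.33, adjusted p = 0.000929 by limma), the largest in these lists. Cxcl9 (-2.97), Ccl4 (-2.86), Ccl3 (-2.63), Cxcl2 (-2.18) and Tnf (-2.03) fell as well, and Ccl2, Ccl4 and Cxcl9 passed with each sample left out in turn. Tnf did not pass without PBS 1 (-1.86) or IRF5-NP 3 (-1.97), Ccl3 without IRF5-NP 3 (-2.52) and Cxcl2 without IRF5-NP 1 (-2.09) or IRF5-NP 3 (-2.27). Cxcl2 was at -1.18 without PBS 1, where it passed, and did not pass under a common median or quantile normalization. Ifnb1, a classic product of endosomal receptor signaling, was at 71.6, 66.2 and 71.4 with PBS and 13.3, 21.0 and 39.0 with IRF5-NPs. Its IRF5-NP values were below background, and the log2 change of -1.61 had an adjusted p of 0.0644 by limma. Il6 had a log2 change of 1.36 (adjusted p = 0.265, and 0.30 without PBS 1) and Il1b of 0.04.

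None of the 14 other genes of the lists passed, which were the DNA sensor adaptor Tmem173, 7 pattern receptors of other families and 6 endogenous ligands. Their log2 changes ranged from -2.65 to 1.45.

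**Figure D5:**
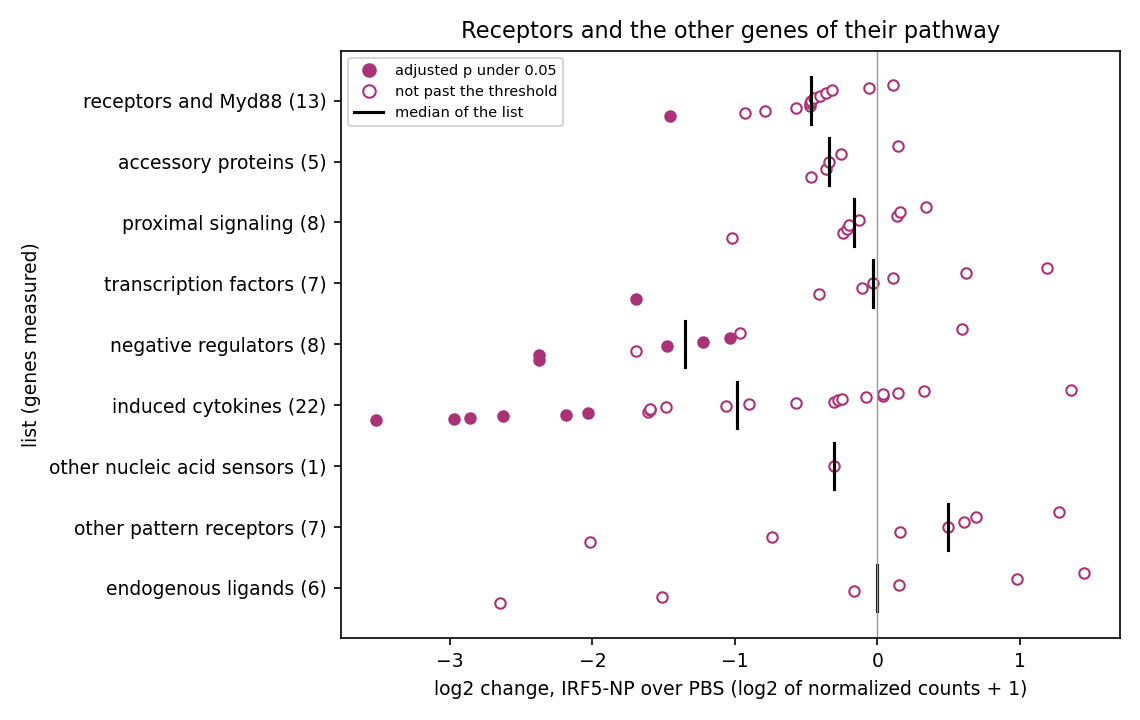
Log2 change, IRF5-NP over PBS, of the 13 members and of 64 other genes of the pathway by list, with filled points for an adjusted p under 0.05 by limma, open points otherwise and a black line at the median of each list. Inhibitors (median -1.35) and induced cytokines (median -0.98) hold 11 of the 12 filled points outside the members.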

How the data were processed

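RNA of sorted peritoneal macrophages, 3 PBS and 3 IRF5-NP samples as grouped by the labels, was counted with the NanoString Myeloid Innate Immunity panel. The deposited unit is a signal, the normalized count on a linear scale, which the authors scaled in nSolver by the housekeeping genes' geometric mean after a quality check with NanoStringQCPro, as stated for cultured macrophages. No genome build is given in the sources used here. The values of all 754 genes were whole multiples (tolerance 0.01) of 1 factor per sample, 0.952 to 2.60, which gave the counts. The tested values were log2(normalized count + 1), fitted with limma 3.58.1 (lmFit, eBayes with trend) in R 4.3.3, with Benjamini-Hochberg adjustment over 754 genes at 0.05. PBS 2 and 3 were averaged as 1 sample. The fit was tried on simulated counts with the same dispersion for every gene and no sample set apart. Since PBS 1 and IRF5-NP 1 stood apart here, that trial does not cover the spread of these data. Members and lists were chosen with earlier results of these data known, and a floor at background and an average of IRF5-NP 2 and 3 were chosen after seeing the data. Named were all members, the pathway genes past the threshold with the accessory proteins and transcription factors, the 5 genes closest to Tlr9, and Irf5. Traf6, Ifnb1, Il6 and Il1b were chosen after their values were seen. Scaling, background, weighting, adjustment, blocking and left-out samples were varied. Promoters matched 11 of 13 members.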

Additional observations from a re-analysis of the deposited data

How the results depend on the processing

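The precision is limited by the 5 samples compared and, for Tlr9, Tlr5, Tlr11 and Tlr12, by signals near the negative controls, above all in IRF5-NP 3 with 683472 counts. Count models were planned and not run. Every Tlr9 estimate was below 0, from -2.31 to -1.24, and passed in 16 of 22 alternatives. Where it did not pass, the cause was not tested.

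Leaving out single samples, the number of panel genes past the threshold ranged from 21 to 83 (72 with all samples), that of members from 0 to 1 (1 with all, 0 without PBS 1 and without IRF5-NP 3), that of pathway genes from 4 to 13 (12 with all), and the endosomal minus surface change from -0.12 to 0.10 (-0.03 with all). Scaled to the positive controls, which moved the median of genes above background by -0.92 on the log2 scale, these counts were 14 panel genes, 0 members and 3 pathway genes by limma. With the negative control mean subtracted they were 25, 0 and 4, and the endosomal minus surface change was -0.46. Without a trend in the variance prior, 41 panel and 6 pathway genes passed, and with array weights 125 and 22. By a t-test per gene, 0 panel genes, 0 members and 0 pathway genes passed after Benjamini-Hochberg or Benjamini-Yekutieli adjustment. At an unadjusted p under 0.05 the counts were 125, 1 and 14 by the t-test and 191, 2 and 30 by limma. The methods name a t-test, but here PBS 2 and 3 entered it as 1 sample. A t-test with PBS 2 and 3 separate was not run, so the study's own test was not repeated. With Benjamini-Yekutieli adjustment, limma called 21 panel genes, 0 members and 4 pathway genes. With PBS 2 and 3 as separate samples, 121 panel genes and 2 members passed.

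The replicate numbers were not shown to pair the samples, since same-numbered deviations from the group means correlated at 0.158, 0.178 and 0.0953 over 482 genes. With a replicate block, 135 panel genes, 2 members and 21 pathway genes passed, and with a block for the samples numbered 1, 133 and 20. With IRF5-NP 2 and 3 averaged, 31 panel and 5 pathway genes passed. With values raised to each sample's background, 20 pathway genes passed and the endosomal minus surface change was 0.18, and with values raised to the highest background, 23 panel and 3 pathway genes passed. Under a common median, which moved the median of genes above background to 0.11, 30 genes were called higher and 42 lower, and under quantile normalization 35 and 40, against 19 and 53.

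Tlr3 turned from 0.11 to -0.74 with positive control scaling, to -0.036 with separate samples or a replicate block, to -0.0092 with a block for the samples numbered 1, to -0.33 without PBS 1 and to -0.020 without IRF5-NP 3, the left-out range being -0.33 to 0.31. Tlr4 turned from -0.06 to 0.11 under a common median, 0.17 under quantile normalization, 0.094 with array weights and 0.14 without IRF5-NP 1, the left-out range being -0.21 to 0.14. Tlr11 and Tlr12 turned to 0.33 and 0.27 with values raised to each sample's background. Directions of the other 9 members were kept under every alternative run.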
